A study of Mus musculus with 6 samples.

Results

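The genes described here encode the receptors through which serotonin, dopamine, noradrenaline, histamine and acetylcholine act on brain cells. They were the rows of the deposited table whose gene symbol begins with Htr, Drd, Adra, Adrb, Hrh or Chrm and a digit, or with Chrn and one of the letters a, b, d, e and g. This rule found 54 of 43346 rows, of which 53 encode a receptor or receptor subunit. The remaining row, Chrna1os, is an antisense RNA annotated beside the muscle receptor gene Chrna1. RNA was sequenced from the brain of 3 adult male Kdm5c deficient mice and 3 wild-type males from the same litters. All 6 mice came from mating a C57BL/6 female, heterozygous for the Kdm5c deficiency, with a 129 male of wild type. The autosomes of both genotypes are therefore a 50:50 mixture of the C57BL/6 and 129 strains. The X chromosome of these males came from the mother. Kdm5c is an X-linked gene whose protein removes methyl groups from lysine 4 of histone H3, and the labels give neither the allele nor the part of the brain that was taken.

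Most of these receptors couple to G proteins. Receptors coupled to Gs raise cyclic AMP, those coupled to Gi/o lower it and open potassium channels, and those coupled to Gq/11 activate phospholipase C and release calcium. The nicotinic receptors and the serotonin receptor built from Htr3a and Htr3b are instead ion channels made of several subunits around a pore. Monoamines and acetylcholine are released by small groups of neurons with wide projections, and the receptors are distributed unevenly, with Drd1a and Drd2 in striatum, Chrm1 in cortex and hippocampus, and Chrna3 and Chrnb4 in the medial habenula.

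The libraries held 21090278, 24178704 and 21945675 counts in deficient mice, against 24555412, 20221675 and 22956590 in those of wild type. Kdm5c itself had 1572, 1561 and 1713 counts in deficient mice, against 1916, 1692 and 1921 in those of wild type, which does not check the genotype because the allele is not described. The label of brain was checked on 8 markers each of neurons, astrocytes, oligodendrocytes and microglia, all of which passed the filter on low counts. Deficient mouse 2 stood apart. The summed level of 16 cerebellar markers was 1774, 383 and 1364 CPM (counts scaled to the library total) in deficient mice 1, 2 and 3, against 1954, 2040 and 2216 CPM in the wild-type mice. Fold changes without deficient mouse 2 are given beside several of the results.

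No receptor gene passed the test between genotypes. Of the 54 rows, 46 had enough reads to be tested, and 0 of them reached an adjusted p under 0.05 (quasi-likelihood test of edgeR, Benjamini-Hochberg adjustment over all 15127 genes tested). Over all those genes 4.93% passed, 2.45% as higher and 2.48% as lower in deficient mice. An unadjusted p under 0.05 was found for 9 receptor genes, which is 19.6% of those tested, while 24.9% of all tested genes reached it. All 9 were higher in deficient mice and 0 lower, where 12.1% of all tested genes reached it as higher and 12.8% as lower. These 9 were Chrm1, Chrm3, Htr5a, Htr1a, Adra2c, Adra1d, Adra2a, Adrb1 and Drd4. The lowest adjusted p among the receptor genes was 0.0751. With limma-voom 0 passed as well, and DESeq2 called Chrm1 and Adrb1 as higher, 2 genes, where it called 4.22% of all genes with an adjusted p as higher and 8.51% in either direction. CPM did not overlap between the genotypes for 9 of the 46 genes, 8 higher and 1 lower in deficient mice, or 19.6%, beside 30.8% of all tested genes. Of all tested genes 14.9% were higher and 16% lower without overlap. The receptor genes were not matched to all genes in level.

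The differences were small. The median log2 fold change of the 46 tested genes was 0.08, and 31 were positive and 15 negative; over all tested genes the median was 0.00 and 50.3% were positive. The 95% intervals, not adjusted for the number of genes, lay within a 2-fold change in either direction for 45 of the 46 genes, the exception being the dopamine receptor gene Drd4, whose counts were low. They lay within 1.5-fold for 27 genes and within 1.25-fold for 12. When deficient mouse 1 was left out, 7 receptor genes passed as higher, namely Adra1d, Adrb1, Chrm1, Chrm3, Htr2a, Htr3a and Htr5a, while 7.16% of all tested genes passed as higher in that fit. Without any other single mouse the count was 0, without deficient mouse 2 included.

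The mark that Kdm5c removes is found around gene starts rich in CpG dinucleotides, so the sequence before the start is shown for 4 receptor genes: the 3 with the smallest p-values and the 1 with the narrowest interval, among those with a single RefSeq start and at least 150 bases before it outside their GENCODE exons. CpG dinucleotides are in capitals, sequences run 5′ to 3′ on the gene's strand, and the build is GRCm38.p6. The Htr5a window is chr5:27841697-27841946 on the plus strand with 13 CpGs in 250 bases. That of Adrb1 is chr19:56721867-56722116 on the plus strand with 24 CpGs in 250 bases. That of Chrm3 is chr13:10360848-10361053 on the minus strand with 10 CpGs in 206 bases. That of Chrnb2 is chr3:89764633-89764882 on the minus strand with 10 CpGs in 250 bases.
Htr5a: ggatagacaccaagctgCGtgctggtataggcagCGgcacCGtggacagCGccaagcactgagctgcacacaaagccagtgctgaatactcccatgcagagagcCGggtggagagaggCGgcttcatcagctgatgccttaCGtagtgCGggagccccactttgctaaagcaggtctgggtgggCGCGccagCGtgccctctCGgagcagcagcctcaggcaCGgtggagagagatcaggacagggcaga
Adrb1: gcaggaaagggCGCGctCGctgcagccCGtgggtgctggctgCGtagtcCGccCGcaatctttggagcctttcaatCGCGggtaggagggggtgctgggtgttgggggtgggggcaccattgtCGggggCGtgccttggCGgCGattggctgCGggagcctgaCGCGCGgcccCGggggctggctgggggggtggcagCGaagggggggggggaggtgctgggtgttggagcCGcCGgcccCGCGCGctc
Chrm3: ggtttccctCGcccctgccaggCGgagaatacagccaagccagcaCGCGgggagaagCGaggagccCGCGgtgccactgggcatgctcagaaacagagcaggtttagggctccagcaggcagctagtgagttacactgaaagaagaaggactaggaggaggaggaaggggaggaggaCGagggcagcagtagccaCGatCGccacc
Chrnb2: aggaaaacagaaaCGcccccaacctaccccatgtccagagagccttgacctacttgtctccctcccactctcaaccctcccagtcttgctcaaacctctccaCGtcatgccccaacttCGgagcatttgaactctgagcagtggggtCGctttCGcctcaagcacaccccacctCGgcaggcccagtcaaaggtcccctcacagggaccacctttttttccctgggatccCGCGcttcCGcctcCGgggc
RefSeq windows were matched for 41 of the 54 genes, 50 windows in all. Over the 250 bases before the start the median number of CpGs was 9.5 in these windows and 6 in all 32851 RefSeq windows, and it ranged from 1 to 42 over the receptor windows. The letters CACGTG, which read the same on both strands, were in 3 of the 50 windows (6%) and in 6.02% of all windows. No data on histone marks were analysed here, and the part of CpG content in the differences was not tested.

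Muscarinic receptors respond to acetylcholine through G proteins. Chrm1, the Gq/11-coupled receptor of cortical and hippocampal neurons, was the most abundant of all the receptor genes per transcript length. Its level was 143, 204 and 169 CPM in deficient mice 1, 2 and 3, against 128, 115 and 139 CPM in the wild-type mice. All deficient values lay above all wild-type values, with deficient mouse 2 far above the rest and deficient mouse 1 just above wild-type mouse 3. The log2 fold change of Chrm1 was 0.44 ± 0.12 (SE), a 1.35-fold difference with a 95% interval of 1.12 to 1.64, and its adjusted p was 0.0751 by edgeR. Without deficient mouse 2 the log2 fold change of Chrm1 was 0.29 ± 0.09 (SE) and its adjusted p 0.0913 by edgeR. DESeq2 gave Chrm1 an adjusted p of 0.00429, and it was also the 1 receptor gene that passed with no filter on low counts, where 2.65% of all genes passed as higher and 5.32% in either direction. The authors' deposited table gives Chrm1, as wild type over deficient, a log2 fold change of -0.38 with an unadjusted p of 0.000135. Exons of Chrm1, on chromosome 19 from 8663789 to 8683587 (GRCm38), share 329 nt with an antisense annotated gene, Gm22820, so reads of both genes cannot be told apart there.

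Chrm3, also coupled to Gq/11, had 54.5, 76.1 and 57.8 CPM in deficient mice and 51.8, 50.4 and 52.1 CPM in wild-type mice. The genotypes did not overlap, and the wild-type mice were close to one another while deficient mouse 2 was again the highest. Its log2 fold change was 0.29 ± 0.11 (SE, edgeR adjusted p = 0.155), and 0.13 ± 0.05 (SE, edgeR adjusted p = 0.23) without deficient mouse 2. Chrm4, a Gi/o-coupled receptor of striatal neurons, had 17.7, 22.8 and 20.2 CPM in deficient mice and 17.7, 14.3 and 19.6 CPM in wild-type mice, which overlap. Chrm2, the Gi/o-coupled autoreceptor of cholinergic neurons, pointed the other way with 34.8, 30.2 and 34.6 CPM in deficient mice and 33.2, 36.0 and 34.1 CPM in wild-type mice; its fold was 0.964 with a 95% interval of 0.863 to 1.08. The least abundant member, Chrm5, a receptor of midbrain dopamine neurons, had 35, 37 and 36 counts in deficient mice, against 24, 33 and 26 in those of wild type.

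The ratio of Chrm1 to Chrm2 counts does not depend on library scaling; this pair was chosen after its values were seen, so the ratio carries no test. It was 4.11, 6.76 and 4.89 in deficient mice, against 3.86, 3.18 and 4.08 in those of wild type, and deficient mouse 1 lay just above the highest wild-type mouse. Summed over the 5 muscarinic genes, the level was 252, 335 and 283 CPM in deficient mice and 232, 217 and 246 CPM in wild-type mice. Chrm1 alone made up 54.9% of this sum in wild-type mice.

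Nicotinic receptors are the channel receptors for acetylcholine, built of alpha and beta subunits in neurons and of Chrna1, Chrnb1, Chrnd, Chrne and Chrng products in muscle. As a family they had the log2 ratio of sums closest to 0 of the 8 families, at 0.00. The 16 subunit genes added up to 178, 187 and 183 CPM in deficient mice and 188, 176 and 183 CPM in wild-type mice, so the mean was 183 ± 4.71 CPM in deficient against 182 ± 5.75 CPM in wild-type mice (SD, n = 3 each). The subunits of the main brain receptor dominated. Chrnb2, with 90.1, 87.8 and 92.2 CPM in deficient mice and 95.7, 89.1 and 92.5 CPM in wild-type mice, supplied 50.7% of the wild-type sum. Its 95% interval, 0.904 to 1.05 as a fold, was the narrowest of the 46, although 1365 nt of its exons are shared with Adar on the opposite strand. Chrna4, its usual partner, had 56.4, 62.6 and 56.6 CPM in deficient mice and 58.0, 53.9 and 56.0 CPM in wild-type mice, with a log2 fold change of 0.06 ± 0.06 (SE, edgeR adjusted p = 0.532), or 0.01 without deficient mouse 2. The ratio of Chrna4 to Chrnb2 counts was 0.626, 0.713 and 0.614 in deficient mice, against 0.606, 0.605 and 0.606 in those of wild type. Deficient mouse 2 had the highest ratio, and this pair too was taken after its values were seen. Chrna7, which forms a channel from a single kind of subunit, had 14.4, 18.9 and 16.8 CPM in deficient mice and 15.6, 17.3 and 17.2 CPM in wild-type mice.

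The remaining neuronal subunits had at most 101 counts in a mouse. Chrna5, an accessory subunit, had the smallest p among nicotinic genes, with 50, 90 and 68 counts in deficient mice, against 47, 53 and 61 in those of wild type; the genotypes overlapped, at a log2 fold change of 0.38 ± 0.21 (SE, edgeR adjusted p = 0.304). That of Chrna5 was 0.21 without deficient mouse 2. It lies on chromosome 9 from 54980880 to 55007779 (GRCm38), next to Chrna3 (55010111 to 55026562) and Chrnb4 (55028154 to 55048779), with which it is often coexpressed, and no exon of the 3 genes is annotated as shared. Chrna3 had 50, 57 and 82 counts in deficient mice, against 71, 32 and 53 in those of wild type. Chrnb4 had 22, 32 and 47 in deficient mice, against 45, 32 and 34 in those of wild type, so the genotypes overlapped for all members of this cluster. Chrna6 and Chrnb3, subunits of receptors on dopamine nerve endings, lie side by side on chromosome 8. Chrna6 had 66, 71 and 40 counts in deficient mice, against 72, 49 and 62 in those of wild type. Chrnb3 had 63, 91 and 46 counts in deficient mice, against 101, 49 and 66 in those of wild type. Both were lowest in deficient mouse 3, in which the mean log2 deviation of markers of midbrain and hindbrain monoamine neurons was also lowest, at -0.73 against 0.40 and -0.11 in deficient mice 1 and 2. In that list the serotonin neuron genes Tph2 and Slc6a4 had 442, 101 and 20 and 336, 71 and 12 counts in deficient mice. Th went the other way, with 290, 330 and 448 counts. Slc6a3, the dopamine transporter gene, had 384, 489 and 241 counts in deficient mice, and Slc18a2 had 632, 483 and 308, both lowest in deficient mouse 3. Markers of olfactory bulb and newborn neurons were highest in that mouse, at a mean log2 deviation of 0.66 against -0.11 and -0.02 in deficient mice 1 and 2. The part of these markers in the levels was not tested. Chrna2 had 26, 21 and 18 counts in deficient mice, against 32, 27 and 23 in those of wild type.

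Most muscle subunits had few reads or none. Chrnd, like the histamine receptor gene Hrh4, had 0 reads in every mouse, which allows up to 0.0222 CPM over the 6 libraries together by counting error alone. Chrng had 2 reads in wild-type mouse 2 and none elsewhere, and Chrne had 3, 3 and 3 reads in deficient mice, against 9, 6 and 2 in those of wild type. Chrnb1 had 62, 40 and 37 counts in deficient mice, against 58, 61 and 57 in those of wild type, a log2 fold change of -0.31 ± 0.24 (SE, edgeR adjusted p = 0.442). That of Chrnb1 was -0.62 without deficient mouse 1 (edgeR adjusted p = 0.0729) and -0.17 without deficient mouse 2. Chrna1 was the only tested receptor gene with lower values and no overlap, at 0.564, 0.713 and 0.599 CPM in deficient mice against 0.729, 0.783 and 0.787 CPM in wild-type mice, from 12 to 18 reads per mouse, and its adjusted p was 0.571 by edgeR. The antisense RNA Chrna1os had 16, 21 and 22 counts in deficient mice, against 16, 19 and 13 in those of wild type. The subunits of inner ear hair cell receptors were not tested: Chrna9 had at most 3 reads in a mouse, and Chrna10 had 10, 7 and 32 reads in deficient mice, against 5, 4 and 9 in those of wild type, with deficient mouse 3 well above the others; exons of Chrna10 share 1025 nt with Art1 on the opposite strand.

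Noradrenaline and adrenaline act on alpha and beta receptors. The 9 genes of these receptors added up to 132, 145 and 136 CPM in deficient mice. Their sums were 120.5, 114 and 122 CPM in wild-type mice, a log2 ratio of 0.21. The adrenergic sums did not overlap between genotypes, and the serotonin and acetylcholine sums did not either, though narrowly. The lowest deficient and highest wild-type sums were 221 and 218 CPM for serotonin and 429.5 and 428.6 CPM for acetylcholine. The dopamine and histamine sums overlapped. Of the 9 adrenergic genes, 4 had an unadjusted p under 0.05 by edgeR, or 44.4%, all higher in deficient mice. Of all tested genes 24.9% reached it, 12.1% as higher. After adjustment 0 of the 9 passed (lowest adjusted p 0.0781 by edgeR). Adra2c, a Gi/o-coupled receptor that lowers transmitter release, had 23.5, 26.5 and 23.2 CPM in deficient mice and 20.8, 17.7 and 20.7 CPM in wild-type mice. The genotypes did not overlap, and the log2 fold change of Adra2c was 0.31 ± 0.09 (SE). That of Adra2c without deficient mouse 2 was 0.24 ± 0.09 (SE, edgeR adjusted p = 0.147). Adra2a, its close relative and the main autoreceptor of noradrenergic neurons, had 33.4, 31.5 and 28.7 CPM in deficient mice and 26.8, 28.9 and 26.6 CPM in wild-type mice, so deficient mouse 3 fell just below wild-type mouse 2. Its log2 fold change was 0.19 ± 0.07 (SE, edgeR adjusted p = 0.151).

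Adra1d, a Gq/11-coupled receptor, had 16.7, 20.8 and 19.4 CPM in deficient mice and 16.0, 12.9 and 16.2 CPM in wild-type mice. The groups did not overlap, though deficient mouse 1 and wild-type mouse 3 were close, and the log2 fold change of Adra1d was 0.33 ± 0.11 (SE, edgeR adjusted p = 0.121). That of Adra1d without deficient mouse 2 was 0.26 ± 0.115 (SE, edgeR adjusted p = 0.239). Its relatives Adra1a and Adra1b had log2 fold changes of 0.05 ± 0.10 and 0.03 ± 0.07 (SE), with 95% intervals of 0.888 to 1.21 and 0.909 to 1.14 as folds. Adrb1, the Gs-coupled beta receptor of neurons, had 20.4, 25.4 and 23.7 CPM in deficient mice and 18.5, 15.5 and 19.7 CPM in wild-type mice. No deficient mouse lay below a wild-type mouse, and the log2 fold change of Adrb1 was 0.37 ± 0.11 (SE), 1.296-fold with a 95% interval of 1.09 to 1.54, at an adjusted p of 0.0834 by edgeR and 0.0388 by DESeq2. That of Adrb1 without deficient mouse 2 was 0.30 ± 0.11 (SE, edgeR adjusted p = 0.152). Adrb3, known from fat tissue, had 37, 57 and 46 counts in deficient mice, against 46, 35 and 39 in those of wild type, and 839 nt of its exons are shared with an antisense gene, Gm45470. The genotypes overlapped for Adrb3.

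**Figure D1:**
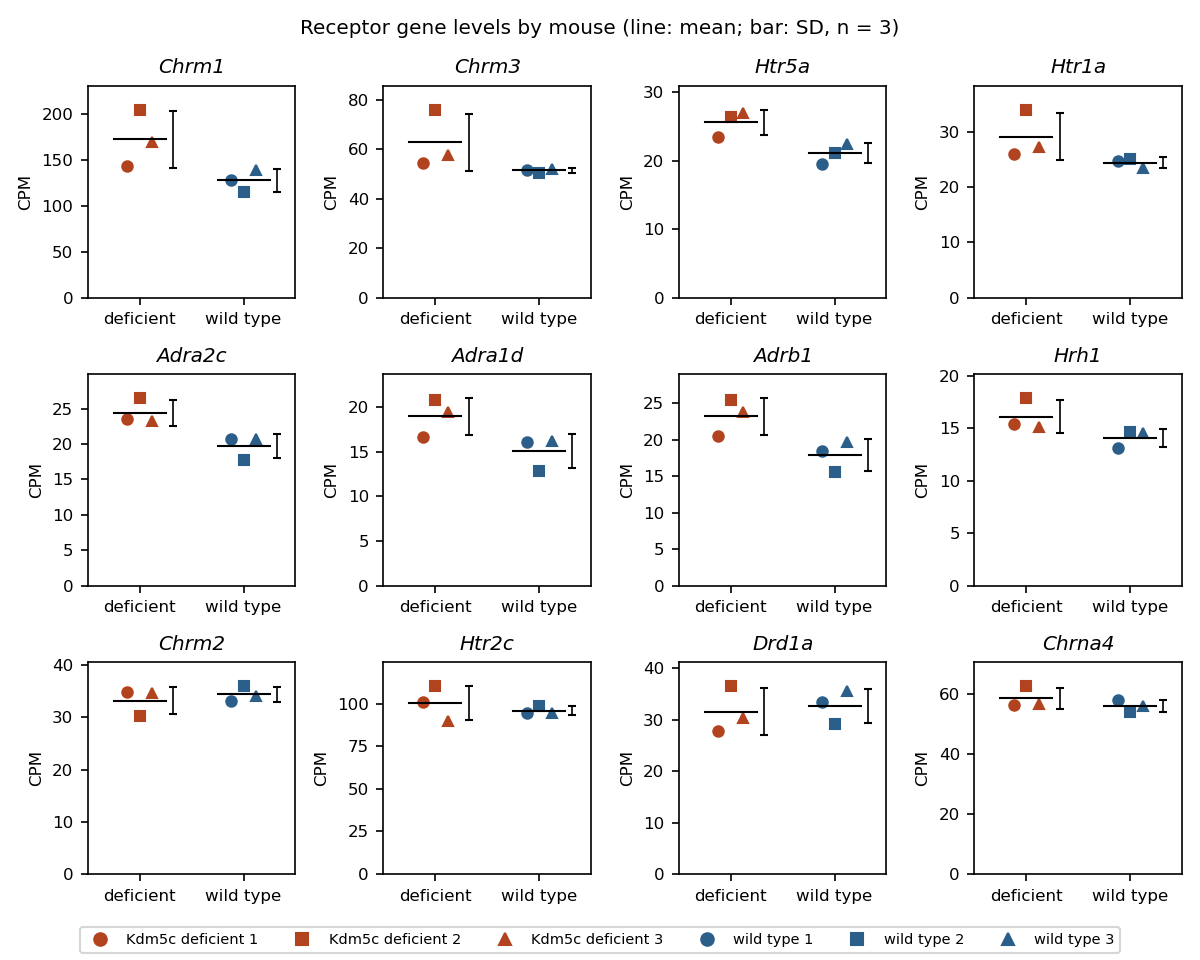
Level in CPM (vertical axes, each from 0) of 12 receptor genes by mouse, Kdm5c deficient left and wild type right, with the mean as a line and the SD (n = 3) as a bar. The upper rows hold all 8 tested receptor genes that were higher in deficient mice without overlap, with Chrm1 at 143 to 204 CPM in deficient and 115 to 139 CPM in wild-type mice. The 4 in the bottom row overlap. Chrna1, lower without overlap, is not drawn. Of all tested genes 30.8% did not overlap between genotypes.

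Serotonin receptors are the most varied of these families. The metabotropic members added up to 218, 249 and 217 CPM in deficient mice and 207, 215 and 210.0 CPM in wild-type mice. Htr2c, a Gq/11-coupled receptor on the X chromosome (146962513 to 147197277, GRCm38) that is abundant in choroid plexus, made up 45.6% of the wild-type sum. It had 101.1, 110.2 and 90.1 CPM in deficient mice and 94.7, 99.0 and 94.6 CPM in wild-type mice, which overlap, with a fold of 1.05 and a 95% interval of 0.935 to 1.17. Choroid plexus markers deviated by 0.21, -0.33 and -0.21 in deficient mice and by 0.25, 0.00 and 0.08 in wild-type mice on the log2 scale, and their part in the level of Htr2c was not tested.

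Htr5a, a Gi/o-coupled receptor on chromosome 5 (27842149 to 27855088, GRCm38), shared the lowest adjusted p with Chrm1. It had 23.5, 26.4 and 27.0 CPM in deficient mice and 19.6, 21.2 and 22.5 CPM in wild-type mice. All deficient mice were above all wild-type mice, here with deficient mouse 3 and not 2 the highest. The log2 fold change of Htr5a was 0.28 ± 0.08 (SE, edgeR adjusted p = 0.0751), and 0.26 ± 0.09 (SE, edgeR adjusted p = 0.125) without deficient mouse 2. Htr1a, the Gi/o-coupled receptor of serotonin neurons and hippocampus, had 26.0, 34.1 and 27.3 CPM in deficient mice and 24.8, 25.2 and 23.4 CPM in wild-type mice. The groups did not overlap, but deficient mice 1 and 3 were close to the wild-type range, and the log2 fold change of 0.26 ± 0.10 (SE, edgeR adjusted p = 0.161) was 0.13 ± 0.07 (SE, edgeR adjusted p = 0.33) without deficient mouse 2. Htr2a, the Gq/11-coupled receptor at which classical psychedelics act, had 17.3, 21.9 and 23.8 CPM in deficient mice and 16.0, 17.9 and 19.0 CPM in wild-type mice, which puts deficient mouse 1 within the wild-type range. Htr1b, a Gi/o-coupled autoreceptor of nerve endings, had 17.0, 16.5 and 15.3 CPM in deficient mice and 19.1, 16.4 and 17.8 CPM in wild-type mice, at a log2 fold change of -0.13 ± 0.08 (SE, edgeR adjusted p = 0.365).

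The Gs-coupled serotonin receptors Htr4, Htr6 and Htr7 overlapped between genotypes, with log2 fold changes of -0.08 ± 0.12, 0.23 ± 0.18 and 0.02 ± 0.09 (SE). Htr1d, Htr1f and Htr5b, at 31 to 83 counts per mouse, had 0.12 ± 0.14, 0.27 ± 0.18 and 0.28 ± 0.24 (SE). Without deficient mouse 2 the log2 fold change was 0.01 for Htr6 and 0.16 for Htr5b. Of the channel subunits, Htr3a, a marker of a class of cortical interneurons, had 63, 150 and 103 counts in deficient mice, against 97, 70 and 83 in those of wild type. The deficient mice spanned the whole wild-type range, from below it in mouse 1 to well above it in mouse 2, and the log2 fold change of Htr3a was 0.35 ± 0.24 (SE, edgeR adjusted p = 0.393). It was 0.595 without deficient mouse 1 (edgeR adjusted p = 0.0459) and 0.07 without deficient mouse 2. Htr3b had at most 3 reads in a mouse, and Htr2b had 1 read in wild-type mouse 3 and none elsewhere.

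None of the 5 dopamine receptor genes passed, and the abundant ones overlapped between genotypes. Drd1a (now named Drd1), the Gs-coupled receptor of striatal neurons of the direct pathway, had 27.9, 36.6 and 30.3 CPM in deficient mice and 33.5, 29.1 and 35.6 CPM in wild-type mice. Drd2, the Gi/o-coupled receptor of the indirect pathway and of dopamine neurons, had 17.5, 22.1 and 17.9 CPM in deficient mice and 18.4, 17.7 and 19.4 CPM in wild-type mice. Both were highest in deficient mouse 2 and overlapped between genotypes, and the summed level of 15 striatal markers was also highest in that mouse, at 1403, 1837 and 1468 CPM in deficient mice and 1566, 1433 and 1556 CPM in wild-type mice. The 95% intervals were 0.812 to 1.15 for Drd1a and 0.888 to 1.21 for Drd2, as folds. Drd4, a Gi/o-coupled receptor of cortex and retina, had 18, 11 and 17 counts in deficient mice, against 9, 10 and 7 in those of wild type. In CPM deficient mouse 2 fell below wild-type mouse 2, and the log2 fold change of Drd4, 0.84 ± 0.35 (SE, edgeR adjusted p = 0.177), was the highest of the 46 with the widest interval, 1.04 to 3.09 as a fold. Drd5 and Drd3 had 46 to 60 and 10 to 18 counts per mouse, with log2 fold changes of -0.10 ± 0.15 and -0.04 ± 0.29 (SE). Of the 3152 nt of Drd5 exons, 1531 nt are shared with an antisense gene, Gm26560.

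Among histamine receptors, Hrh3, the Gi/o-coupled autoreceptor that limits release of histamine and other transmitters, was the most abundant. It had 34.8, 41.9 and 40.7 CPM in deficient mice and 37.0, 35.4 and 39.4 CPM in wild-type mice, a log2 fold change of 0.07 ± 0.08 (SE, edgeR adjusted p = 0.606). Hrh1, the Gq/11-coupled receptor blocked by sedating antihistamines, had 15.4, 17.9 and 15.1 CPM in deficient mice and 13.1, 14.6 and 14.6 CPM in wild-type mice. These did not overlap, at a log2 fold change of 0.20 ± 0.09 (SE, edgeR adjusted p = 0.232), or 0.11 without deficient mouse 2. Hrh2, coupled to Gs, had 93, 76 and 97 counts in deficient mice, against 108, 64 and 107 in those of wild type.

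Levels of the receptor genes spanned several orders of magnitude per transcript length. On the scale of CPM per kilobase of merged exons, Chrm1 had 26.5 ± 4.75 in deficient and 19.6 ± 1.88 in wild-type mice (SD, n = 3 each). Chrm4 followed with 14.1 ± 1.79 in deficient and 11.96 ± 1.85 in wild-type mice, although its annotation holds a single exon of 1440 nt, which would raise this value if transcripts are longer. Hrh3, Chrna4, Chrnb2 and Htr2c came next, at 12.4, 11.6, 10.7 and 10.8 in deficient mice, against 11.8, 11.1, 11.03 and 10.3 in those of wild type, and these neighbours differed by no more than about their spread between mice. The highest of the other families were Drd1a at 8.70 ± 1.23 in deficient and 9.02 ± 0.915 in wild-type mice, Adra1d at 9.98 ± 1.09 in deficient and 7.92 ± 0.992 in wild-type mice, Adrb1 at 6.86 ± 0.749 in deficient and 5.29 ± 0.634 in wild-type mice, and Htr3a at 2.24 ± 0.801 in deficient and 1.76 ± 0.121 in wild-type mice (SD, n = 3 each).

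**Figure D2:**
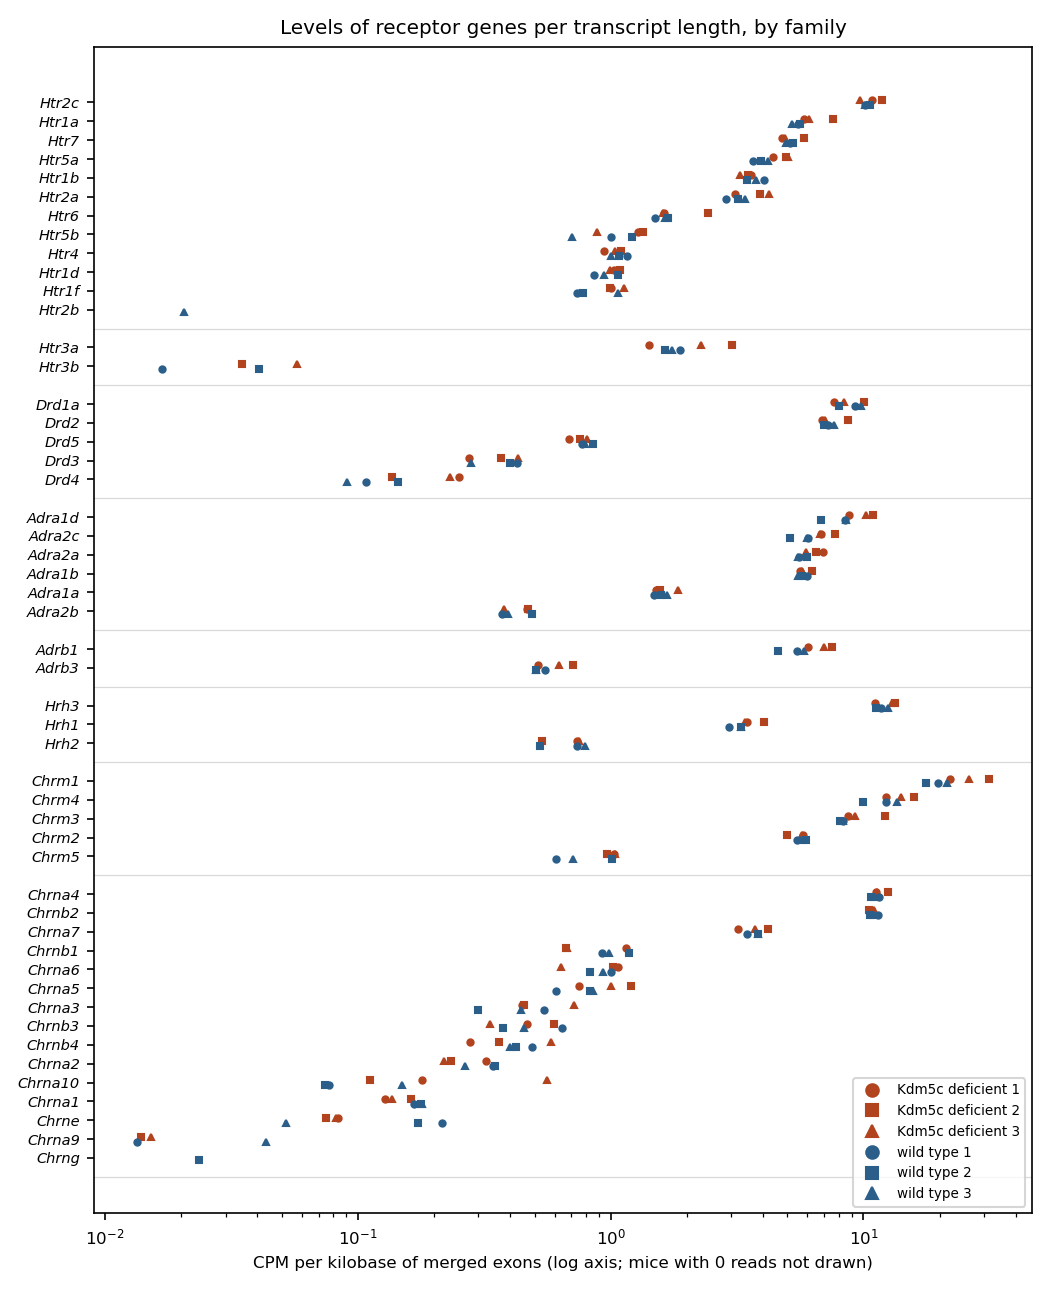
Level of the receptor genes reported one by one that had at least 1 read, in CPM per kilobase of merged exons on a log axis, by mouse, with deficient mice drawn above wild-type mice and genes ordered within each family by their mean over the 6 mice. Chrm1 leads at 26.5 in deficient and 19.6 in wild-type mice, and Chrng, Chrna9, Htr3b and Htr2b lie at the low end.

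Read by coupling instead of transmitter, the 9 tested Gq/11-coupled genes all had positive log2 fold changes (median 0.25), as did 11 of 14 Gi/o-coupled genes (median 0.15), against 4 of 9 Gs-coupled genes (median -0.03) and 5 of 12 channel subunit genes (median -0.03). The share of positive values over all tested genes was 50.3%. None of these genes passed the test, and the grouping was made after the values were seen. In deficient mouse 2, 6 of the 9 Gq/11-coupled genes were highest (66.7%), beside 25.3% of all tested genes. Without that mouse Adra1b and Htr2c were negative, at -0.0252 and -0.0067. Adra1a was at -0.0418 without deficient mouse 3, and the rest of the 9 stayed positive whichever mouse was left out.

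Many receptor genes were highest in the mouse that stood apart in its cerebellar markers. Of the 46 tested receptor genes, 22 had their highest CPM in deficient mouse 2, or 47.8%, beside 25.3% of all tested genes. The mean log2 deviation of the 46 genes was -0.02, 0.13 and 0.04 in deficient mice, against -0.05, -0.06 and -0.04 in those of wild type. Markers of cortex and hippocampus, 15 genes, deviated by -0.08, 0.26 and 0.13 in deficient mice and by -0.07, -0.21 and -0.02 in wild-type mice, and their summed level was 4906, 6617 and 5949 CPM in deficient mice and 4883, 4477 and 5190 CPM in wild-type mice. The cerebellar markers deviated by 0.38, -2.19 and 0.00 in deficient mice, against 0.53, 0.56 and 0.72 in those of wild type. The mice with the most Chrm1, deficient mice 2 and 3, also had the most RNA of cortical and hippocampal markers, and wild-type mouse 2 had the least of both. The part of these markers in the receptor levels was not tested. In a sample of whole tissue, fewer cells of a type and less RNA per cell cannot be told apart.

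**Figure D3:**
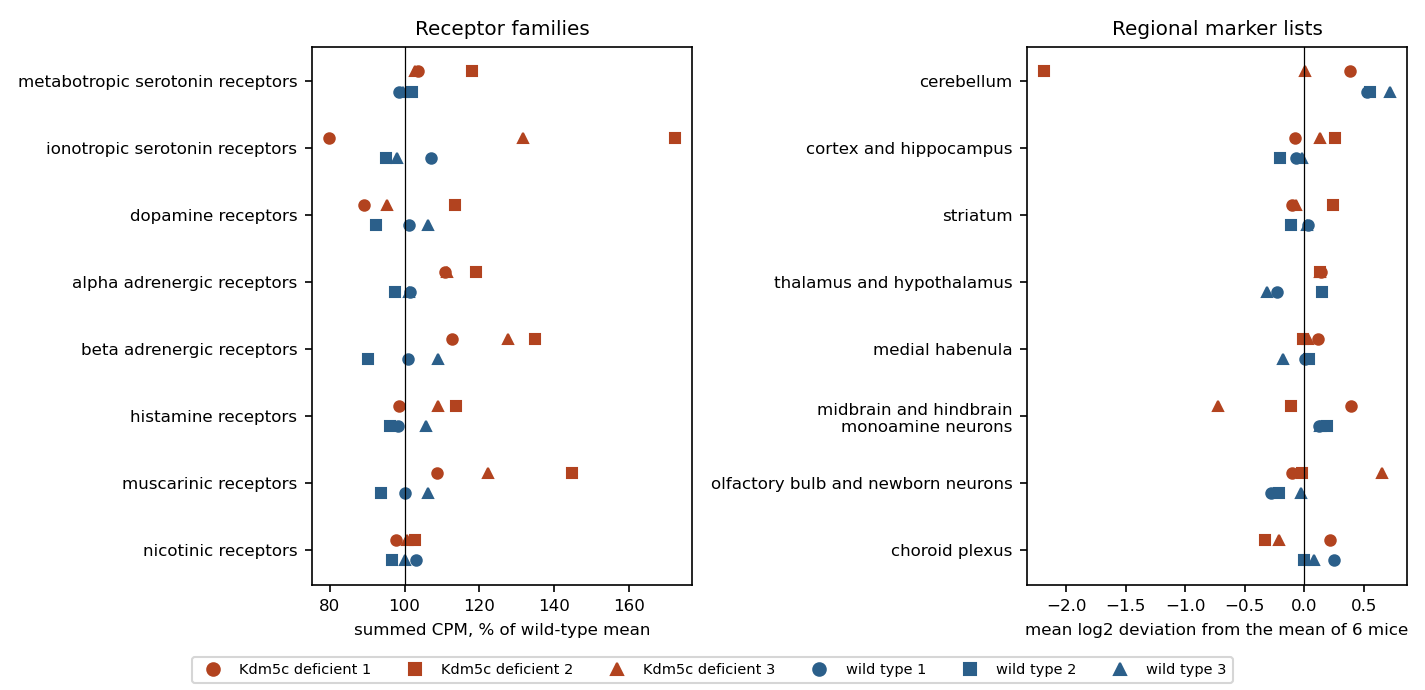
Left, summed CPM of each receptor family by mouse as a percentage of the wild-type mean; right, mean log2 deviation of regional marker lists from the mean of the 6 mice. Deficient mice are drawn above wild-type mice. Deficient mouse 2 has the highest muscarinic sum, 335 CPM, and lies at -2.19 for cerebellar markers, while nicotinic sums stay between 176 and 188 CPM.

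Proteins that fold, escort or modulate these receptors were the neighbouring group with the most calls. Of 15 tested genes for accessory proteins, 4 passed as higher in deficient mice and none as lower, or 26.7%, beside 4.93% of all tested genes. The list was drawn up with earlier results of these data known, so this share carries no test of the list. The median log2 fold change of the 15 was 0.15. Ly6h, a membrane-anchored protein that holds back alpha7 nicotinic receptors, had 166, 200.2 and 163 CPM in deficient mice and 137, 122 and 129 CPM in wild-type mice. Its log2 fold change was 0.44 ± 0.08 (SE, edgeR adjusted p = 0.0273). Ly6g6e, a relative known to enhance currents of alpha4beta2 nicotinic receptors, had 78, 68 and 88 counts in deficient mice, against 25, 23 and 36 in those of wild type, a log2 fold change of 1.504 ± 0.22 (SE, edgeR adjusted p = 0.0148); its exons overlap those of Ly6g6d on the opposite strand. Caly, the gene of calcyon, first described as a partner of the dopamine D1 receptor, had 144, 171 and 145 CPM in deficient mice and 121, 112 and 117 CPM in wild-type mice, with a log2 fold change of 0.40 ± 0.07 (SE, edgeR adjusted p = 0.0239). S100a10, or p11, which brings Htr1b and Htr4 receptors to the cell surface, had 20.7, 19.0 and 18.1 CPM in deficient mice and 15.1, 15.4 and 14.96 CPM in wild-type mice, with a log2 fold change of 0.35 ± 0.08 (SE, edgeR adjusted p = 0.0398).

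None of the 4 overlapped between genotypes, but they were picked by a test on the same values, so this adds no support. Of all tested genes 30.8% did not overlap, 14.9% as higher in deficient mice. Without deficient mouse 2 the list again had 4 members called higher and none lower. With 1 mouse left out at a time, Ly6h, Caly and S100a10 each passed in 2 of 6 fits and Ly6g6e in 3. The fits without deficient mouse 3 or any wild-type mouse called only 44 to 155 of all genes, against 746 with all 6 mice. The calls of Ly6h, Caly and S100a10 were also lost with the replicate number as a block, a fit that called 58 genes in all. That of S100a10 was lost without scaling of the libraries too.

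**Figure D4:**
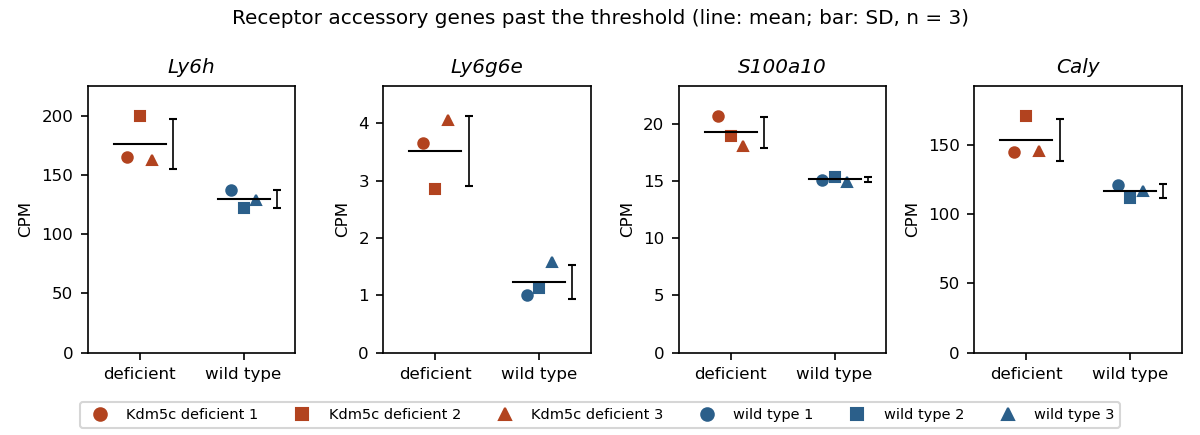
Level in CPM (vertical axes, each from 0) by mouse of the 4 receptor accessory genes past the threshold, Kdm5c deficient left and wild type right, with the mean as a line and the SD (n = 3) as a bar. The genotypes do not overlap in any of the 4, which were picked by the test on these same values. S100a10 lies at 18.1 to 20.7 CPM in deficient and 14.96 to 15.4 CPM in wild-type mice.

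Genes on either side of the receptors gave few calls or none. These lists too were drawn up with earlier results known, so their shares of calls carry no test of a list. Of 33 tested genes for G protein subunits, adenylyl cyclases, phospholipases C beta and inositol trisphosphate receptors, none passed with edgeR, while 9 were higher and 4 lower at an unadjusted p under 0.05; limma-voom called 1 higher and DESeq2 called 4 higher, and without deficient mouse 2 edgeR called 1 higher and 1 lower. None of 24 genes for receptor kinases, arrestins and regulators of G protein signalling passed with edgeR or limma-voom, with 6 higher and 2 lower at an unadjusted p under 0.05 and 2 called higher by DESeq2; without deficient mouse 2 edgeR called 1 lower. None of 6 genes of acetylcholine synthesis, transport and breakdown passed with edgeR, limma-voom or DESeq2, and 1 was lower at an unadjusted p under 0.05. Beside these counts, 12.1% of all tested genes were higher and 12.8% lower at an unadjusted p under 0.05 by edgeR. DESeq2 called 4.22% of all genes with an adjusted p as higher and 8.51% in either direction. Among 18 genes of monoamine synthesis, transport and breakdown 2 rose, Pnmt and Maob, or 11.1%, beside 4.93% of all tested genes; DESeq2 called 2 higher and 1 lower. Maob, which breaks down dopamine and trace amines, had 30.5, 30.4 and 30.2 CPM in deficient mice and 24.7, 23.0 and 24.8 CPM in wild-type mice (log2 fold change 0.33 ± 0.06, SE, edgeR adjusted p = 0.0231), and it passed in 2 of 6 fits with 1 mouse left out and not with the replicate number as a block. Pnmt, the enzyme that makes adrenaline, had 63, 160 and 91 counts in deficient mice, against 3, 4 and 5 in those of wild type (log2 fold change 4.67 ± 0.44, SE, edgeR adjusted p = 0.00198). Of 20 other subunit genes of the same channel superfamily 1 rose, Gabrq, the theta subunit of GABA-A receptors, with 14.9, 18.2 and 13.9 CPM in deficient mice and 7.37, 11.2 and 7.83 CPM in wild-type mice (log2 fold change 0.84 ± 0.17, SE, edgeR adjusted p = 0.0309). That is 5% of the 20, beside 4.93% of all tested genes; Gabrq passed in 3 of 6 fits with 1 mouse left out, and DESeq2 called 2 of the list higher and 1 lower.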

How the data were processed

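Per the labels' protocols, RNA came from RNeasy columns (Qiagen) and sequencing libraries from a TruSeq RNA kit (Illumina). DESeq2 and the build GRCm38 are named in the submitters' processing notes. Which aligner, counting program, annotation and strand setting were used is not given in the sources used here. The deposited table holds 1 raw count per gene symbol and mouse, per the file headers. The authors also deposited a mean normalized signal over the 6 mice, for each gene a log2 ratio of wild type over deficient (a direction the counts show) and its standard error, the Wald test's score and the p-value before adjustment; these were not used in any test.

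The count analysis ran in edgeR 4.0.16 under R 4.3.3. The default expression filter (minimum count 10, minimum total 15) left 15127 genes holding 99.9% of the counts in every mouse. Scaling used trimmed means of M-values, the quasi-likelihood model had no term besides genotype, and p-values were adjusted by Benjamini-Hochberg over all genes tested. CPM are relative to the scaled total. Standard errors come from the F statistic, and 95% intervals from the t distribution with the test's degrees of freedom. Deviations are means of log2(CPM + 0.5) from the mean of the 6 mice. Exon lengths, positions and exon overlaps come from GENCODE M21 (GRCm38), and all 54 symbols matched, Drd1a by its current name. Without a stated use of strand, reads of overlapping genes cannot be told apart. Besides the overlaps given with the genes, antisense genes share 852 nt of Htr1b exons, 349 nt of Hrh3, 252 nt of Htr2b, 147 nt of Adra1d, 145 nt of Hrh2 and 142 nt of Chrm2. Alternatives were other scalings, filters, thresholds, DESeq2 1.42.0, limma-voom (limma 3.58.1), a replicate block and leaving out each mouse.

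The members, gene lists and tests were chosen with earlier results of these data known. Full statistics go to members with an adjusted p under 0.05, to the up to 3 smallest p-values and the highest level per length in each family; others named were chosen after their values were seen. The values of 1 receptor gene are not reported here one by one; it is included in counts, sums and medians. Mice of a genotype are separate animals per the labels, and no pair of libraries of one genotype agreed within sampling noise (chi-square per gene from 3.55 to 17.6). The limit for a count of 0 covers counting error only.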

Additional observations from a re-analysis of the deposited data

How the results depend on the processing

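The finding of 0 receptor genes lower held in each alternative run. That of 0 higher held with median-ratio, upper quartile or no scaling, with a filter of at least 5 CPM, with limma-voom and with a replicate block, and became 2 with DESeq2, 1 with no filter, 4 at an adjusted p threshold of 0.1, and 0 to 7 when 1 mouse was left out. All genes called higher and lower were 601 and 612 with DESeq2, 558 and 563 with no filter, 49 and 9 with a replicate block, and 857 and 935 at the threshold of 0.1, against 371 and 375 in the fit reported. Leaving out 1 mouse gave 38 to 1101 higher and 6 to 997 lower. The labels do not say that the replicate numbers pair the mice. Deviations of same-numbered mice correlated at -0.06, -0.06 and 0.14, and those of differently numbered mice at -0.107 to 0.156. With 3 mice per genotype these values cannot exclude pairing.

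Of the 46 tested receptor genes, 32 kept the sign of their log2 fold change in every alternative. Chrna7, at 0.001 in the fit reported, was at -0.0014 with a filter of at least 5 CPM, -0.0005 with limma-voom, -0.0139 without scaling and -0.0076 with a replicate block. Leaving out 1 mouse moved Chrna7 from -0.10 to 0.10, Adra1a from -0.0418 to 0.11, Adra1b from -0.0252 to 0.0637, Chrm2 from -0.0854 to 0.0120, Chrna6 from -0.14 to 0.18, Chrnb3 from -0.31 to 0.17, Chrnb4 from -0.45 to 0.10, Drd1a from -0.1713 to 0.0335, Drd2 from -0.0638 to 0.1147, Drd3 from -0.20 to 0.11, Hrh2 from -0.18 to 0.11, Htr2c from -0.0067 to 0.1375 and Htr7 from -0.0820 to 0.0741. The median log2 fold change of the tested receptor genes, an alternative added after seeing the data, stayed between 0.06 and 0.14. The cause of these shifts was not tested. The widest intervals among the receptor genes, those of Drd4 and Drd3, belonged to genes with 7 to 18 counts per mouse.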
